A study of Arabidopsis thaliana with 17 samples.

Results

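POPEYE (PYE, AT3G47640), BHLH100 (AT2G41240) and BHLH101 (AT5G04150) are basic helix-loop-helix (bHLH) transcription factors of the response of Arabidopsis thaliana to iron deficiency, and their transcript levels are described here in shoots and roots of wild-type plants and of plants without a functional NBR1, a receptor of selective autophagy. In WT shoots PYE had a mean signal of 5.22 ± 0.34 (SD, n = 3) on a log2 scale, against 3.16 ± 0.52 in KO1 and 2.49 ± 0.10 in KO3 (n = 3 each). Every KO shoot array lay below every WT shoot array, with estimates 4.18-fold lower in KO1 and 6.63-fold lower in KO3. In roots the difference of PYE from WT was 0.29 (SE 0.18) in KO1 and 0.30 (SE 0.18) in KO3. BHLH100 had its lowest values relative to WT in roots, where KO3 was 1.95-fold and KO1 1.57-fold lower, and BHLH101 stayed within 0.36 of WT on the log2 scale in all comparisons.

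The 3 genes were chosen by their known role and from the signals of these same arrays, with earlier results of the KO comparisons in view. Their differences from WT are therefore given as estimates with standard errors, and no test is attached to them. They are 3 of the 18107 probe sets that carried a gene name and were tested, out of 28583 deposited. Each gene has a single probe set. PYE (probe set 13436502) and BHLH101 (13521850) were named by the platform's annotation. BHLH100 (13419754) was named only by the study's supplementary list of genes changed in roots of an NBR1 overexpressor, which was made from arrays other than those used here. No sequence of the 3 genes was read.

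Plants take up iron from the soil through the root surface, and in Arabidopsis a network of bHLH factors sets the machinery for it. The subgroup Ib factors BHLH38, BHLH39, BHLH100 and BHLH101 are strongly induced when iron is short, in shoots as well as in roots, and in roots they act as partners of FIT, the main activator of the uptake genes. PYE, of subgroup IVb, is also induced by iron deficiency and represses genes of iron transport and storage. The subgroup IVc factors ILR3, BHLH104, BHLH34 and BHLH115, together with BHLH121, lie upstream of PYE and of the subgroup Ib genes.

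The series compared Col-0 wild type (WT) with KO1 and KO3, lines homozygous for a deletion in NBR1 made by CRISPR/Cas9 and freed of the transgene by crossing. Plants were 4 weeks old and grew hydroponically in Araponics boxes on 0.5x Hoagland medium, with an 8 h day at 22 °C and a 16 h night at 18 °C. Shoots and roots were collected apart, each sample combined portions of at least 3 plants, and 100 ng of total RNA was hybridised to Affymetrix Arabidopsis Gene 1.1 ST arrays. There were 17 arrays, 3 for each line and organ except WT roots, which had 2 (replicates 1 and 3). Each KO genotype is represented by 1 line, and both lines were set against the same WT arrays, so their differences from WT share those arrays. The labels call the arrays of a group biological replicates, and the spread given is that between them. In pooled organs, a loss of cells that contain a transcript and a loss of transcript per cell cannot be told apart.

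The NBR1 signal bore out the labels. It was 4.55 and 4.51 lower than WT on the log2 scale in KO1 and KO3 shoots and 3.77 and 3.23 lower in roots, the lowest difference of all probe sets tested in each comparison. The median signal of an array lay between 1.72 and 1.85 for shoots, and between 2.61 and 2.67 for roots. Whether both organs were normalised together is not given in the sources used here, so signals were compared within an organ, and organs were set side by side by the percentile of a gene among all probe sets of its array. Replicate 1 of KO1 shoots stood apart. The SD of its signals over all probe sets was 1.41, against 1.94 to 2.07 on the other shoot arrays, and its mean correlation with the other shoot arrays was 0.934, against 0.971 to 0.976. Replicate 1 of WT roots had a mean correlation of 0.978, against 0.983 to 0.987 on the other root arrays. Of the organ markers listed, 1 of 17 shoot genes and 3 of 13 root genes were measured. The shoot marker LHCB4.1, a light-harvesting protein, gave 6.20 to 8.29 in shoots and 2.67 to 3.39 in roots, and the root genes EXPA7, EXPA18 and PRP3 gave 0.67 to 1.78 in shoots and 4.02 to 5.89 in roots, so that no array went against its labelled organ.

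PYE in shoots was the member with the greatest distance from WT. The WT shoot arrays gave signals of 5.30, 4.85 and 5.51 for replicates 1, 2 and 3. The KO1 shoot arrays gave 3.28, 3.60 and 2.59. The KO3 shoot arrays gave 2.42, 2.45 and 2.60. The highest KO signal was thus that of KO1 replicate 2, and the lowest WT signal, that of replicate 2, was still well above it. The difference from WT was -2.06 (SE 0.26) in KO1, which ranked PYE as number 40 from the lowest of the 18107 probe sets, and -2.73 (SE 0.26) in KO3, where it ranked number 6.

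The PYE difference in shoots was below 0 in every alternative analysis run. With 1 array left out at a time it ranged from -2.29 to -1.78 in KO1 and from -2.92 to -2.59 in KO3, and without the KO1 replicate that stood apart it was -2.13 in KO1. Quantile normalisation of the arrays gave -1.60 in KO1.

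**Figure D1:**
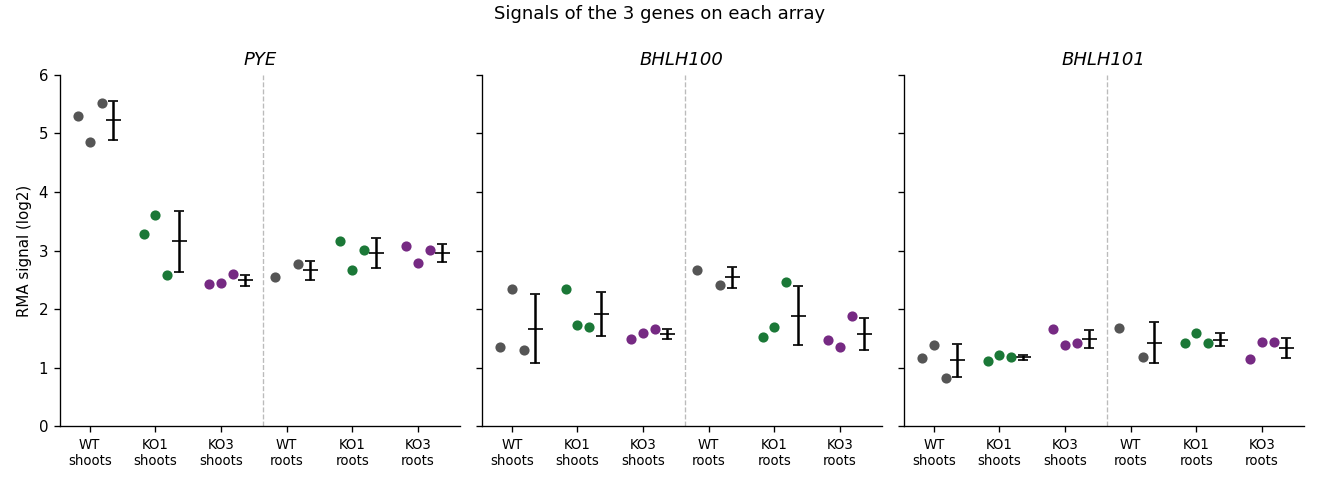
RMA signal (log2) of PYE, BHLH100 and BHLH101 on each of the 17 arrays, by line and organ, with points for arrays (replicates 1, 2 and 3 from left to right) and bars for the mean ± SD. PYE in WT shoots is at 4.85 to 5.51 and in KO shoots at 2.42 to 3.60, while the groups of BHLH101 overlap with WT in each organ; the dashed line separates shoots from roots, whose signals should not be set against each other.

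For PYE in shoots the KO lines differed less from each other than from WT. KO1 exceeded KO3 by 0.67 (SE 0.26) on the log2 scale. The signals of the lines overlapped, since KO1 spanned 2.59 to 3.60 and KO3 2.42 to 2.60, and the KO3 arrays varied less (SD 0.10) than those of KO1 (SD 0.52) or WT (SD 0.34). Within its array, PYE in WT shoots stood at the 86.5th to 89.2nd percentile of all probe sets. It stood at the 64.8th to 82.1st percentile in KO1 shoots and at the 61.8th to 64.0th in KO3 shoots. The value of 82.1 belonged to KO1 replicate 1, the array with the narrow spread of signals, so that PYE was less displaced by rank than by signal on that array.

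In roots PYE had a similar level in the 3 lines. WT roots gave 2.55 and 2.77, with a mean of 2.66 ± 0.16 (n = 2). KO1 roots gave 3.17, 2.67 and 3.01, with a mean of 2.95 ± 0.26 (n = 3). KO3 roots gave 3.08, 2.79 and 3.01, with a mean of 2.96 ± 0.15 (n = 3). All KO3 root arrays lay above the WT root arrays by a narrow margin, whereas KO1 replicate 2 lay between the WT arrays. The KO lines differed from each other by -0.01 (KO1 minus KO3, SE 0.16).

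By percentile, PYE in roots stood at 48.9 to 52.1 in WT, 50.3 to 56.8 in KO1 and 51.9 to 55.7 in KO3. Ordered by percentile within the array, WT shoots came first, KO1 shoots next, KO3 shoots after them and the root groups last. The percentiles of the shoot groups did not overlap, although the gap between KO1 and KO3 was small and their signals overlapped, and the root groups overlapped one another. The effect in shoots minus the effect in roots was -2.35 (SE 0.34) for KO1 and -3.03 (SE 0.34) for KO3. This difference of organs is a description, since the shoot effect was among the values used to choose the gene.

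BHLH100 had low signals in shoots and no order of the lines. WT shoots gave 1.36, 2.34 and 1.3, with a mean of 1.67 ± 0.58 (n = 3). KO1 shoots gave 2.35, 1.72 and 1.69, with a mean of 1.92 ± 0.37, and KO3 shoots gave 1.49, 1.59 and 1.66, with a mean of 1.58 ± 0.09. WT replicate 2 and KO1 replicate 1 stood above the remaining shoot arrays, and the 3 lines overlapped. The difference from WT was 0.25 (SE 0.29) in KO1 and -0.09 (SE 0.29) in KO3, and KO1 minus KO3 was 0.34 (SE 0.29). Without WT replicate 2 the KO3 difference was 0.25. With 1 array left out at a time the KO1 difference ranged from 0.04, without KO1 replicate 1, to 0.59, without WT replicate 2.

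In roots BHLH100 was lower in the KO lines. WT roots gave 2.67 and 2.41, with a mean of 2.54 ± 0.18 (n = 2). KO1 roots gave 1.52, 1.69 and 2.46, with a mean of 1.89 ± 0.50 (n = 3). KO3 roots gave 1.48, 1.36 and 1.88, with a mean of 1.57 ± 0.27 (n = 3). All KO3 arrays and KO1 replicates 1 and 2 lay below WT, but KO1 replicate 3 fell between the WT arrays. The difference from WT was -0.65 (SE 0.26) in KO1, number 190 from the lowest of all probe sets, and -0.97 (SE 0.26) in KO3, number 83. KO1 exceeded KO3 by 0.32 (SE 0.23).

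With 1 array left out at a time, the BHLH100 difference in roots ranged from -0.94 to -0.47 in KO1 and from -1.12 to -0.84 in KO3. BHLH100 in roots was below 0 in every alternative analysis run, in both lines.

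BHLH100 stood at the 31.8th to 67.2nd percentile of its array over all shoot arrays. In roots it stood at 47.5 to 50.7 in WT, 29.2 to 47.9 in KO1 and 26.2 to 39.3 in KO3. The root order by percentile was thus WT, KO1 and KO3, with WT and KO1 as well as KO1 and KO3 overlapping. The effect in shoots minus the effect in roots was 0.90 (SE 0.43) in KO1 and 0.88 (SE 0.43) in KO3, the opposite sign to that of PYE.

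**Figure D2:**
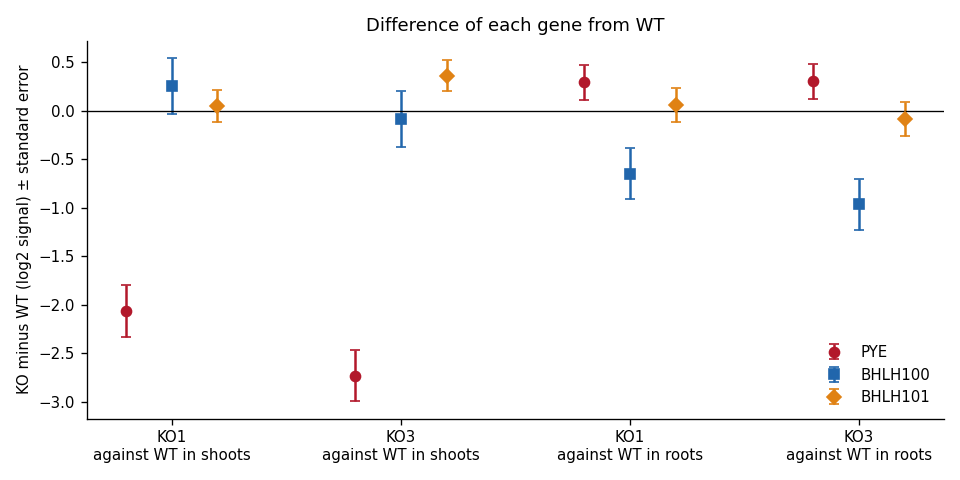
Difference from WT (KO minus WT, log2 signal) with its standard error for PYE, BHLH100 and BHLH101 in the 4 comparisons of a KO line with WT. PYE is at -2.06 and -2.73 in shoots and near 0.3 in roots, BHLH100 is at -0.65 and -0.97 in roots, and BHLH101 is between -0.09 and 0.36.

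BHLH101, the other subgroup Ib factor measured, had a signal below the array median on every array. WT shoots gave 1.16, 1.39 and 0.83, with a mean of 1.13 ± 0.28 (n = 3). KO1 shoots gave 1.12, 1.22 and 1.18, and KO3 shoots gave 1.66, 1.38 and 1.42. All KO3 shoot arrays lay above those of KO1, but WT replicate 2 was within the KO3 range, so that neither line was separated from WT. The difference from WT was 0.05 (SE 0.16) in KO1 and 0.36 (SE 0.16) in KO3, and KO1 minus KO3 was -0.31 (SE 0.16).

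In roots BHLH101 gave 1.67 and 1.18 in WT, a wider gap than within either KO line. KO1 roots gave 1.42, 1.60 and 1.42, and KO3 roots gave 1.14, 1.44 and 1.43. All KO1 arrays lay between the WT arrays, and the 3 lines overlapped. The difference from WT was 0.06 (SE 0.18) in KO1 and -0.09 (SE 0.18) in KO3, and its sign depended on which WT array was used. Without WT replicate 1 it was 0.30 in KO1 and 0.16 in KO3, and without WT replicate 3 it was -0.19 and -0.33. The percentile of BHLH101 within its array was 2.98 to 43.4 on shoot arrays and 11.3 to 33.2 on root arrays. The deposited signals carry no detection call, so whether BHLH101 was above background was not tested. The same limit holds for BHLH100, which in KO3 roots lay at the 26.2nd to 39.3rd percentile.

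The members were also compared from array to array. With the mean of each group taken off, PYE and BHLH101 gave a Pearson r of -0.52 and a Spearman rho of -0.63 over 17 arrays, PYE and BHLH100 gave r = -0.20 and rho = -0.24, and BHLH100 and BHLH101 gave r = 0.33 and rho = 0.27. These arrays share WT samples, organs and normalisation, and the values are given as a description without a test. Across the KO lines, PYE was lower than WT in shoots without overlap of the arrays. BHLH100 was lower on average in roots, where the KO1 arrays overlapped with WT and the KO3 arrays did not. BHLH101 was lower in neither organ beyond the overlap of its arrays.

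A list of 68 genes of iron deficiency, uptake, transport and storage was used to place the members, and 12 of them could be used here, of which 8 are regulators, 2 act in uptake and 2 in transport. A further 13 listed identifiers were measured but left out because the reference table did not give them the listed symbol, and 43 were not named on the array. BHLH38, BHLH39, BTS, IRT1, FRO2 and the ferritin FER1 were thus not analysed here. In the limma fits 0 of 12 genes passed an adjusted p of 0.05 in any of the 4 comparisons, and the count was also 0 in every alternative analysis run. Over all probe sets, 0.309% passed in KO1 shoots, 0.144% in KO3 shoots, 0.127% in KO1 roots and 0.215% in KO3 roots.

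The looser thresholds of the study's methods, 1.5-fold and a p below 0.05, were applied to the limma fit without adjustment of p. By them 2 of 12 genes were lower in KO1 shoots, beside 6.1% of all probe sets, and 0 in KO3 shoots, beside 1.47%. In roots 1 of 12 was lower in KO1, beside 1.33% of all probe sets, and 1 in KO3, beside 1.84%. The number higher was 0 in each comparison, beside 0.42% of all probe sets in KO1 shoots, 1.21% in KO3 shoots, 1.77% in KO1 roots and 2.4% in KO3 roots. With so few genes measured, these shares say little about the list.

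The median difference of the 12 genes from WT was -0.38 in KO1 shoots, 0.05 in KO3 shoots, -0.02 in KO1 roots and -0.20 in KO3 roots, against medians over all probe sets of -0.06, 0.00, 0.00 and 0.00. The KO1 shoot median was -0.16 without replicate 1 of KO1, the array with the narrow spread. Of the 12 genes, 6 owed their names to the study's supplementary tables of changed genes. The other 6, named by the platform's annotation, gave medians of -0.60, 0.03, 0.03 and -0.05 in the same order, and all 25 measured identifiers, a choice added after seeing the data, gave -0.17, 0.00, 0.05 and -0.16. The KO1 shoot values of -0.60 and -0.17 include replicate 1 of KO1 and were not recomputed without it.

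Among the regulators upstream of PYE, BHLH34 was lower than WT in KO1 shoots by the methods' thresholds. Its mean signal was 2.58 ± 0.32 in WT, 1.78 ± 0.08 in KO1 and 2.12 ± 0.29 in KO3 shoots (n = 3 each), and the difference was -0.80 (SE 0.20, adjusted p = 0.193 by limma) in KO1 and -0.45 (SE 0.20, adjusted p = 0.988) in KO3. ILR3, which pairs with the other subgroup IVc factors, was at -1.03 (SE 0.54, adjusted p = 0.555) in KO1 shoots. That value came from KO1 replicate 1 at 4.58, since the other KO1 arrays gave 6.86 and 7.0 and the WT arrays 7.0 to 7.36. In KO3 shoots ILR3 was at 0.08 (SE 0.54). BHLH104 was at -0.57 (SE 0.25) in KO1 shoots and -0.02 (SE 0.25) in KO3 shoots, and BHLH115 at -0.52 (SE 0.25) and -0.37 (SE 0.25). BHLH121 was at -0.63 (SE 0.37) in KO1 shoots and 0.08 (SE 0.37) in KO3 shoots. KO1 replicate 1 was again the lowest KO1 array, at 1.85 for BHLH104, 2.08 for BHLH115 and 3.49 for BHLH121. The other KO1 arrays gave 2.25 and 2.51 for BHLH104, 2.65 and 2.80 for BHLH115, and 5.07 and 4.78 for BHLH121.

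FIT, which in roots works with BHLH100 and BHLH101, was not called in any comparison. Its mean root signal was 7.14 ± 0.05 in WT (n = 2), 7.27 ± 0.41 in KO1 and 6.93 ± 0.20 in KO3 (n = 3 each), with differences of 0.14 (SE 0.22) and -0.21 (SE 0.22). FIT stood above the 96th percentile of the WT root arrays and had a WT mean of 1.36 in shoots. MYB10, a MYB factor of the root response to low iron, was lower by the methods' thresholds in KO3 roots, at -0.68 (SE 0.24, adjusted p = 0.340 by limma), and was at -0.11 (SE 0.24) in KO1 roots. That KO3 result no longer met the thresholds in 4 of 16 alternative analyses, namely with the replicate number as a block (-0.54), without moderation, without WT replicate 1 (-0.50) and without KO3 replicate 2. Of the other subgroup IVb factors in KO3 roots, BHLH121 was at -0.49 (SE 0.19, adjusted p = 0.363) and BHLH11, a repressor, at -0.56 (SE 0.20, adjusted p = 0.341).

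NRAMP1, a plasma membrane transporter of manganese that also carries iron, was the uptake gene nearest to a call. WT roots gave 8.47 and 8.83. KO1 roots gave 7.91, 7.79 and 8.31, and KO3 roots gave 8.18, 8.21 and 8.21. Every KO root array lay below both WT arrays, and the difference was -0.65 (SE 0.18, adjusted p = 0.296 by limma) in KO1 and -0.45 (SE 0.18, adjusted p = 0.381) in KO3. The KO1 root value no longer met the methods' thresholds without WT replicate 3 (-0.47) or without KO1 replicate 2 (-0.54). In KO1 shoots NRAMP1 was at -0.62 (SE 0.25, adjusted p = 0.466), which missed those thresholds in 9 of 17 alternative analyses. BGLU42, a glucosidase of the secretion of coumarins by roots, was at 0.38 (SE 0.22) in KO1 roots and 0.47 (SE 0.22) in KO3 roots, the highest values of the list there. The vacuolar transporters NRAMP4 and MTPA2 were within 0.32 of WT in all comparisons.

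**Figure D3:**
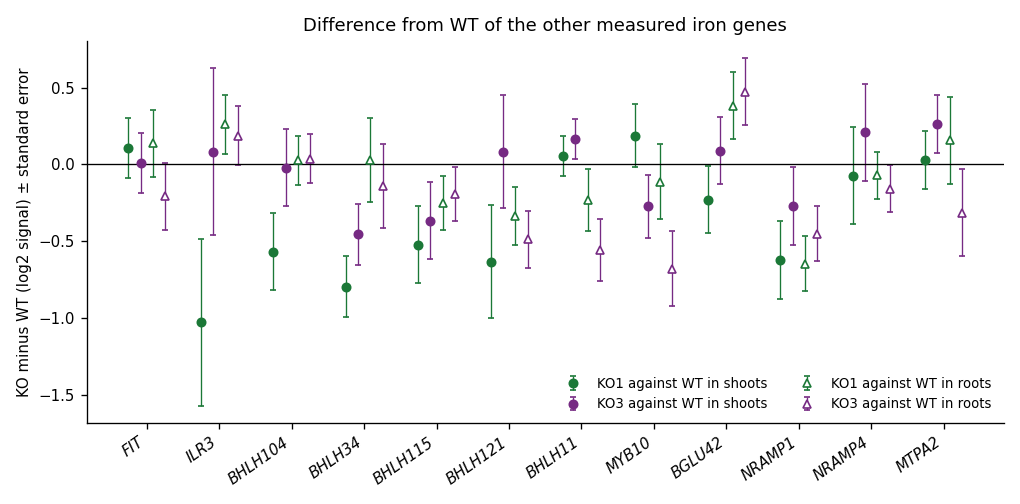
Difference from WT (KO minus WT, log2 signal) with its standard error for the 12 other measured iron genes, with filled circles for shoots, open triangles for roots, green for KO1 and purple for KO3. None passed an adjusted p of 0.05, and the lowest value, -1.03 for ILR3 in KO1 shoots, has the widest error because 1 array carried it.

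The genes whose signals most resembled those of PYE were found by Pearson correlation over the 17 arrays, after the mean of the organ had been taken off each value. They were AT3G09450 (r = 0.92), AT2G27420 (r = 0.92), AT4G33560 (r = 0.89), AT4G27360 (r = 0.89) and AT2G33360 (r = 0.89), for which the files and the reference table give no symbol. The resemblance lay in shoots, where r was 0.92 to 0.94 for these genes over 9 arrays, while in roots it was -0.39 to 0.53 over 8 arrays. The shoot arrays fell into a WT and a KO cluster for these genes, and r within a cluster was not computed.

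AT3G09450 had the steepest difference of these genes. It gave 6.28, 5.68 and 6.29 in WT shoots. KO1 shoots gave 2.19, 3.56 and 2.91, and KO3 shoots gave 3.05, 2.70 and 2.65. As for PYE, every KO shoot array lay below every WT shoot array. The choice of these genes by their likeness to PYE favoured such a separation in advance, so it is no separate result. AT2G33360 had shoot means of 4.34 in WT, 2.58 in KO1 and 2.63 in KO3. Its root means were 3.96, 3.91 and 4.01, so that the KO lines stood apart from WT in shoots alone, as the choice favoured. AT2G27420 had shoot means of 3.73, 1.83 and 1.95 in WT, KO1 and KO3. None of the 12 iron genes was among these 5. With 17300 single-gene probe sets to draw from, that absence says little about the iron genes.

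**Figure D4:**
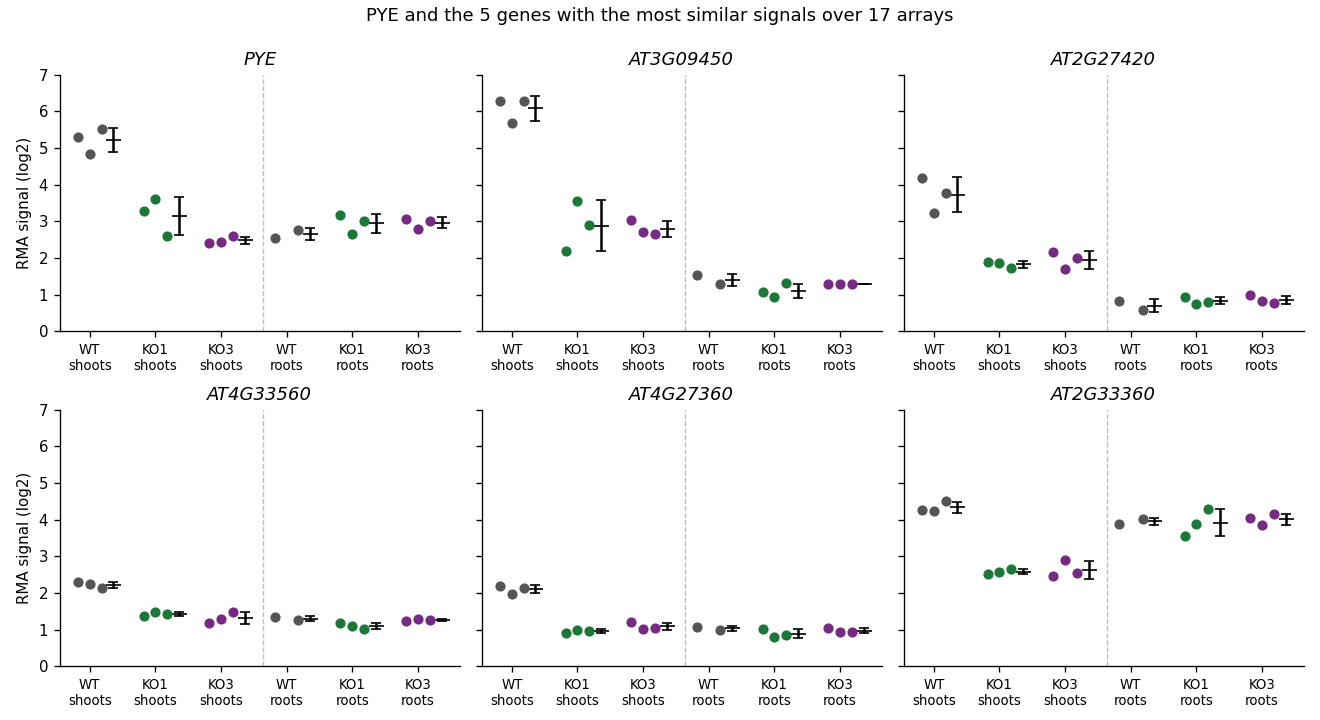
RMA signal (log2) on each array for PYE and the 5 genes with the highest correlation to it over 17 arrays, with points for arrays and bars for the mean ± SD. In each panel the WT shoot arrays stand above all KO shoot arrays, and the root arrays of the 3 lines lie close to one another. The choice of the 5 genes by their likeness to PYE favoured this pattern.

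The genes most like BHLH100 correlated less closely with it, from r = 0.79 for TBL41 and AT1G72200 to r = 0.80 for SCRL27, AT5G61470 and AT5G18880. AT1G72200 was the only one of them with root means above 2, at 5.47 in WT, 4.67 in KO1 and 4.61 in KO3, and these followed the same order of lines as BHLH100. The genes most like BHLH101 were AT2G38390 (r = 0.82), AT4G39670 (r = 0.81), AT5G55450 (r = 0.80), AT4G08230 (r = 0.79) and AT2G42005 (r = 0.76). The 3 sets of 5 genes had no gene in common. Sets this small, drawn from 17300 single-gene probe sets, would rarely share one, so this says little about the members.

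The neighbours of the members on their chromosomes were examined after the members' values had been seen. AT3G47630 and AT3G47650 flank PYE, and neither was called. AT3G47630 was within 0.09 of WT in all 4 comparisons, and AT3G47650 was at -1.11 (SE 0.65) in KO1 shoots and 0.03 (SE 0.65) in KO3 shoots. In KO3 shoots, where PYE was lowest, the estimates of both neighbours were near WT. The error of AT3G47650 was too wide to show that it was unchanged there. BHLH101 overlaps GLU1, a glutamate synthase, in the reference table, and GLU1 was not named among the probe sets tested, so its part in the BHLH101 signal was not tested. On its other side AT5G04160 was not called in any comparison.

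AT2G41250, the gene next to BHLH100 with a span that does not overlap it, was lower than WT on every KO array of both organs. WT shoots gave 7.14, 6.70 and 7.22. KO1 shoots gave 4.03, 5.14 and 5.31, and KO3 shoots gave 4.95, 5.05 and 5.40. The highest KO shoot signal was thus 5.40 and the lowest WT shoot signal 6.70. The difference was -2.19 (SE 0.32, adjusted p = 0.0374 by limma) in KO1 shoots and -1.89 (SE 0.32, adjusted p = 0.125) in KO3 shoots. The KO1 call was lost in 10 of 17 alternative analyses, with adjusted p of 0.0531 to 0.240. These were the omission of any 1 WT or KO3 shoot array or of KO1 replicate 2, the replicate number as a block, a fit of WT and KO1 alone, and no moderation. In KO3 shoots the gene was called in 4 of 17 alternatives, with adjusted p of 0.0011 to 0.00453, namely without KO1 replicate 1, with quantile normalisation, with array weights and in a fit of WT and KO3 alone.

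In roots AT2G41250 gave 5.65 and 5.21 in WT. KO1 roots gave 4.86, 4.49 and 4.35, and KO3 roots gave 4.04, 4.39 and 4.53. The difference was -0.86 (SE 0.21, adjusted p = 0.199 by limma) in KO1 and -1.11 (SE 0.21, adjusted p = 0.0725) in KO3. BHLH100 and AT2G41250 were thus both lower than WT on average in roots, while in shoots AT2G41250 was low in the KO lines and BHLH100 was not.

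**Figure D5:**
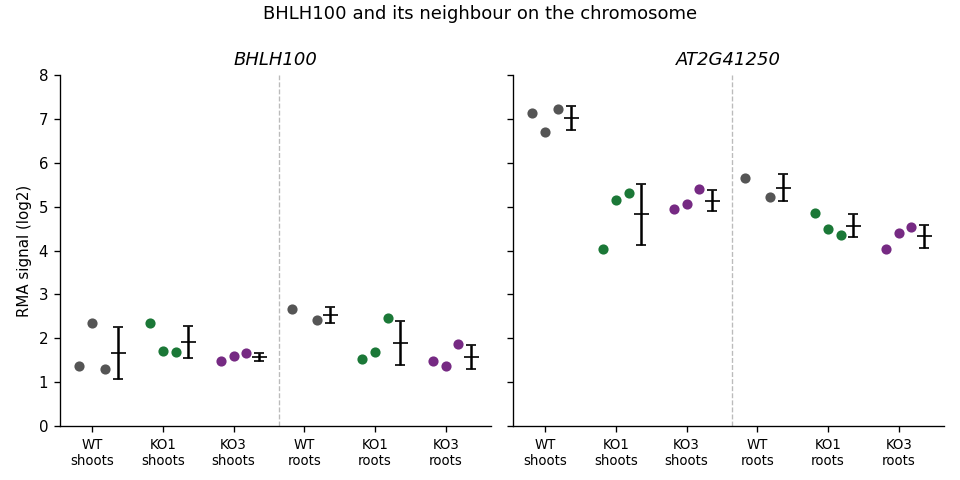
RMA signal (log2) on each array for BHLH100 and for AT2G41250, the next gene on the chromosome, with points for arrays and bars for the mean ± SD. For AT2G41250 every KO array lies below every WT array of its organ, whereas for BHLH100 this holds for KO3 roots only; signals of different probe sets are not on a common scale.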

How the data were processed

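The authors deposited log2 signals of 28583 probe sets, made with RMA in Transcriptome Analysis Console on TAIR10, whose versions are not given in the sources used here. RMA shares its normalisation among arrays, and low signals are compressed by it. Probe sets were named by the platform's annotation (17504) or by the study's supplementary tables (603), and these 18107 were tested. Names and neighbours were looked up in a RefSeq gene table of TAIR10.1. Authors' fold changes and p-values in the supplementary tables, the overexpressor arrays and the study's other assays were not analysed here.

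Each organ was fitted on its own in limma (version 3.58.1, R 4.3.3; functions lmFit and eBayes) with a residual variance common to WT, KO1 and KO3. The Benjamini-Hochberg adjustment covered the 18107 probe sets, and a call required an adjusted p under 0.05. The organ difference came from 1 fit of 6 groups. The steps were tested on simulated data. Tables and plots were made in Python 3.11.15 (matplotlib 3.10.9, pandas 2.3.3, NumPy 2.4.6 and SciPy 1.17.1). Arrays have no read depth, and their number limits the precision.

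The members and the gene lists were chosen with earlier results of these data known. Named genes were the 3 members, NBR1, iron genes that passed either threshold or had been listed for naming (of these FIT and ILR3 were measured), and the 5 single-gene probe sets most correlated with each member. BHLH104, BHLH115, BHLH121, BHLH11, BGLU42, NRAMP4, MTPA2 and the neighbouring genes were named after their values were seen. Where probe sets shared a gene, the one of highest mean signal stood for it. The alternatives were other normalisations, all probe sets, no dim probe sets, array weights, an unmoderated linear model, the groups compared alone, the replicate number as a block, and each array left out.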

Additional observations from a re-analysis of the deposited data

Results flagged for a closer look

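A total of 3 differences between organs stood out because every KO array lay on one side of the WT mean in shoots and on the other side in roots. The effect on PYE in shoots minus that in roots was -2.35 (SE 0.34) in KO1 and -3.03 (SE 0.34) in KO3. For BHLH100 it was 0.90 (SE 0.43) in KO1. In KO3 it was 0.88 (SE 0.43), not flagged because the KO3 shoot arrays also lay below the WT mean. Some margins were small. For PYE, KO1 root replicate 2 gave 2.67 against a WT mean of 2.66. For BHLH100, KO1 shoot replicate 3 gave 1.69 against a WT mean of 1.67. The organ differences were not tested, because the shoot and root values were used to choose the genes. The groups held 2 or 3 arrays, too few to examine single arrays as outliers within a group.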

How the results depend on the processing

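PYE kept the sign of its difference from WT under every alternative run in all 4 comparisons, as did BHLH100 in roots. The sign of BHLH100 in KO3 shoots turned without WT replicate 2 (0.25) and with array weights (0.02). Of the member values under other settings or without 1 array, 157 of 162 moved by less than the spread between replicates. Some settings could not move a value, such as leaving out an array of the KO line not compared. The count therefore says little about stability. PYE in KO1 shoots was -1.60 after quantile normalisation. BHLH101 in KO1 shoots turned to -0.10 without WT replicate 3. BHLH101 in roots ranged from -0.19 to 0.30 in KO1 and from -0.33 to 0.16 in KO3 with 1 array left out, the extremes coming from the WT arrays. The count of probe sets called at an adjusted p of 0.05 was 56 in KO1 shoots, 26 in KO3 shoots, 23 in KO1 roots and 39 in KO3 roots. With 1 array left out it ranged from 24 to 180, 2 to 158, 1 to 57 and 0 to 108 in the same order, the highest without KO1 replicate 1 in shoots and without WT replicate 3 in roots. Tested over all probe sets it was 108, 53, 35 and 70, with array weights 144, 104, 15 and 21, with only the groups compared 16, 123, 1 and 12, and without moderation 2, 1, 1 and 0. After quantile normalisation it was 162 in KO1 shoots and 90 in KO3 shoots. The cause of these shifts was not tested. Arrays limit these results by their number.

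The labels do not say that a replicate number marks a shared batch, so the number was not taken to pair the samples. Deviations correlated over 0.1 in 4 of 9 same-numbered pairs in shoots and 3 of 7 in roots, against 4 of 18 and 0 of 14 pairs of different number. Deviations within a group sum to 0, which ties both kinds of pair, so these counts cannot decide whether a number marks a batch. With the replicate number as a block the count in KO1 shoots was 31. Each number occurs in every shoot group, so the block could not change the difference of PYE there, which was -2.06.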
